A study of Homo sapiens with 14 samples.

Results

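Non-homologous end joining rejoins the 2 ends of a broken chromosome without a template. The KU ring threads onto each end and recruits a large kinase, a nuclease and polymerases trim and fill the ends, and a ligase complex seals them. The pathway acts throughout the cell cycle and also joins the breaks that lymphocytes make in their antigen receptor genes. The 9 genes described here code for its core: XRCC5 and XRCC6 (KU80 and KU70), PRKDC (the catalytic subunit of DNA-PK), DCLRE1C (the nuclease Artemis), POLL and POLM (gap-filling polymerases), LIG4 (the ligase), and XRCC4 and NHEJ1 (its partners). They were taken by name from the authors' deposited interval lists, by the gene symbol given to each interval. By symbol, 8 of the 9 genes had an interval, and they held 26 of the 152412 distinct intervals in the 4 separate lists. PRKDC had no row under its symbol, yet its gene ID stood in the lists with a description of the protein and no symbol, which added 7 intervals. Of the 44178 gene IDs in these lists, 531 had a description citing HGNC and no symbol, so PRKDC is 1 of many genes that a search by symbol misses. PRKDC was added after its rows were seen, and the counts over the 9 genes below are given with and without it.

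STAT5 and BCL6 are transcription factors with similar recognition sequences, known mainly as an activator and a repressor. Chromatin immunoprecipitation with sequencing (ChIP-seq) was done with antibodies to each in DLD-1, an established human colorectal adenocarcinoma line. In the activator group cells carried the plasmid pEGFP-C1199Tiam1, coding for part of the RAC1 activator TIAM1 fused to a fluorescent protein, with vehicle for 16 h. In the inhibitor group that plasmid was combined with the RAC inhibitor EHT 1864 at 20 microM for 16 h, and control cells carried an empty vector. Cells of all groups were transfected, chromatin was taken 20 h later, and no source used here states what share of the cells took up the plasmid. Values were given for 2 activator STAT5, 3 inhibitor BCL6, 2 control STAT5 and 2 control BCL6 libraries; the other 5 of the 14 libraries were not analysed here. The identity of the cells was not checked, since intervals near gene starts do not measure expression of marker genes.

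Each interval has 1 whole-number value per library, which is read here as a count of reads because the headers do not name it. Whether a value counts only reads within the printed bases was not determined. A listed interval has its lowest coordinate between 3000 bp upstream and 1000 bp downstream of a gene start. An interval entered a control list with a value of 2 or more in at least 1 library, and a treated list only with a value of 2 or more in every library, so the numbers of intervals in control and treated lists cannot be compared. The depth of the libraries is unknown. The values over a whole list summed to 37629 and 44216 in activator STAT5, 4390 to 5544 in inhibitor BCL6, 81105 and 100945 in control STAT5, and 84510 and 97187 in control BCL6. A value of 2 has an exact 95% Poisson interval of 0.242 to 7.22 and a value of 9 one of 4.12 to 17.1, which cover counting error only. Values of 2 against 0 at the same place are therefore not distinguishable. The lowest nonzero value is 2, so a 0 is not shown to mean no reads. With 2 libraries per group an exact two-sided permutation test cannot go below p = 0.333, and the labels do not say that libraries came from separate cultures, so no test was made on single intervals.

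The share of end joining genes with an interval was near the share of all protein-coding genes in the lists that held any of them. XRCC5 was the only one of the 9 with an activator STAT5 interval by symbol (11.1%), and with PRKDC there were 2 (22.2%), against 26.1% of the 20056 protein-coding symbols of the reference table. These background shares are counted by symbol only and so miss other genes without a symbol, which makes the count by symbol the one on the same rule. None of the 9 had an inhibitor BCL6 interval, where 3.30% of protein-coding symbols did. The control STAT5 list held 7 of the 9 by symbol (77.8%) and 8 with PRKDC (88.9%), against 74.9% of protein-coding symbols. The control BCL6 list likewise held 7 and 8, against 73.9%. Among activator STAT5 intervals that lie on a control BCL6 peak there was none by symbol and 1 gene, PRKDC, by gene ID (11.1%, against 7.43%). Among inhibitor BCL6 intervals on a control STAT5 peak there was none (against 0.863%). Each gene is 11.1% of the set, so a share that differs from its background by 1 or 2 genes is not a result about these genes.

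**Figure D1:**
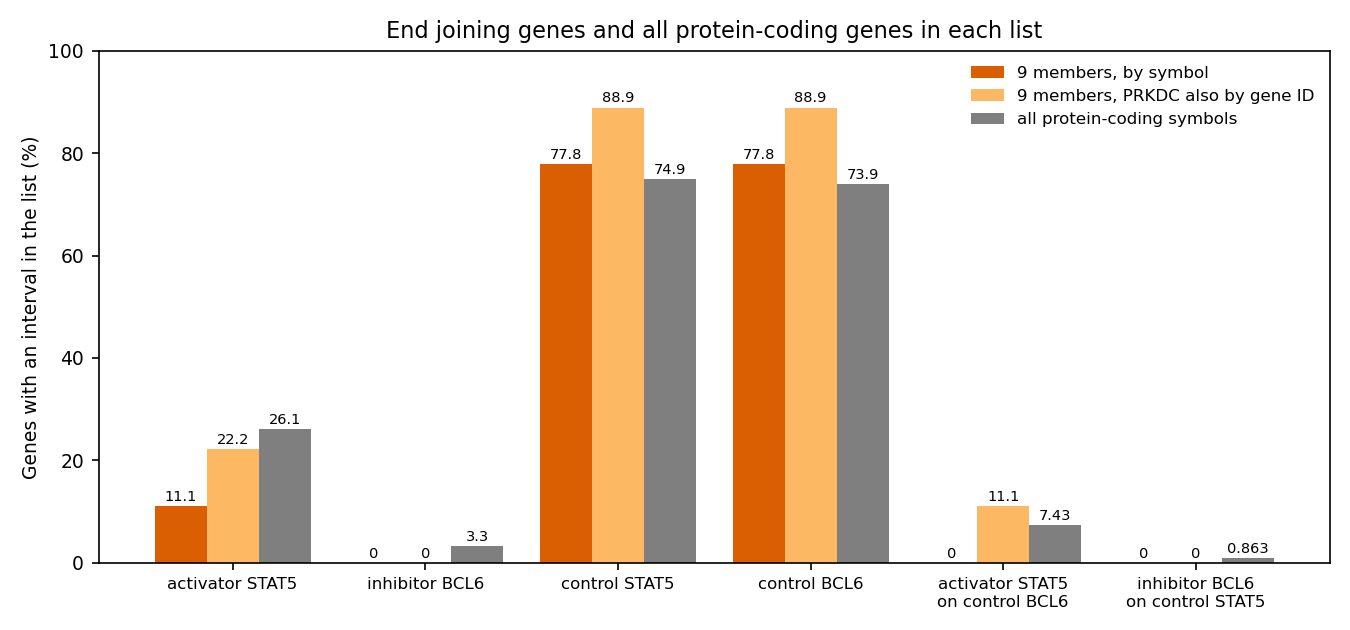
Share of genes (%) with an interval in each deposited list, for the 9 end joining genes by symbol, for the same 9 with PRKDC also found by gene ID, and for all protein-coding symbols. The control lists held 77.8% or 88.9% of the end joining genes beside 74.9% and 73.9% of all genes, and the activator STAT5 list held 11.1% or 22.2% beside 26.1%.

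Most intervals at these genes lay upstream of the start. Of the 26 found by symbol, 20 were wholly upstream, 5 wholly downstream inside the annotated gene, and 1, at LIG4, spanned the start. With PRKDC the numbers were 27, 5 and 1 of 33. Within 1000 bp of the start reached 13 of the 26 (16 of 33 with PRKDC). The window itself reaches 3000 bp upstream and 1000 bp downstream, so upstream places had more room. XRCC6, PRKDC, LIG4 and XRCC4 each stand head to head with a gene on the opposite strand whose start is 752 bp away or less. With MEIG1 near DCLRE1C, such neighbours share 6 of the 26 intervals, or 12 of 33 with PRKDC. Shares over all intervals of the lists were not counted for upstream, near-start or shared places. These counts are therefore not a result about the genes. The files give gene spans but not exons, so exonic and intronic places within the genes were not told apart.

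**Figure D2:**
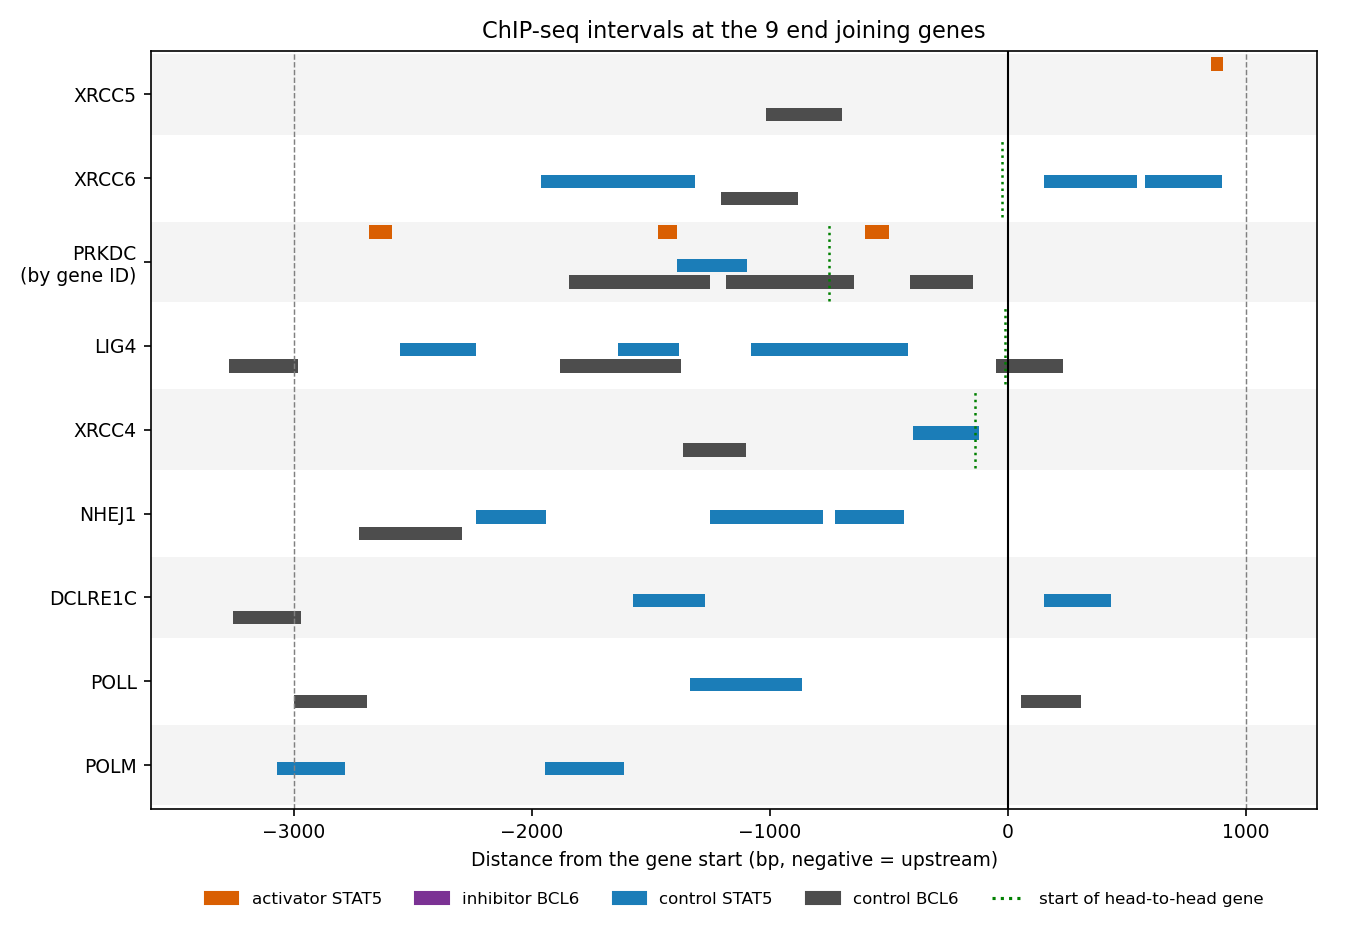
Intervals at each of the 9 genes by distance from the gene start (bp, negative upstream), 1 lane per list from top to bottom in legend order; dashed lines mark the listing window of -3000 to 1000 bp for the lowest coordinate, and dotted lines the start of a gene on the opposite strand. Activator STAT5 bars appear at XRCC5 and PRKDC, no gene has an inhibitor BCL6 bar, and POLM and XRCC5 each lack 1 control list.

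KU recognises the broken end first. XRCC5, which codes for KU80, starts at 216972188 on chromosome 2 (GRCh37, plus strand). Its activator STAT5 interval, chr2:216973040-216973090, is 51 bp wide and lies 852 to 902 bp inside the gene, where the 2 activator STAT5 libraries had values of 2 and 5. No control STAT5 interval lay at XRCC5, and the nearest was 22.4 kb from the start. In control BCL6 the gene had chr2:216971170-216971492 with values of 0 and 2, at -1018 to -696 bp. The activator STAT5 and control BCL6 intervals of XRCC5 thus lie on opposite sides of its start and do not overlap. A gene with an activator STAT5 interval and no listed control STAT5 interval is not shown to have gained STAT5, since the lists have different entry rules and a place without a listed interval has no value to compare.

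XRCC6, which codes for KU70 and pairs with KU80, starts at 42017124 on chromosome 22 (plus strand), 24 bp from the start of DESI1 on the opposite strand. It had 3 control STAT5 intervals. The widest of them, chr22:42015161-42015807 (647 bp), had values of 0 and 7, the highest control STAT5 value among the end joining genes. Downstream of the start, chr22:42017276-42017665 had 0 and 3, and chr22:42017700-42018024 had 3 and 2. That last interval was the only control STAT5 interval of the 9 genes with a value in both libraries. In control BCL6 the gene had chr22:42015917-42016243 with 0 and 3, which stood 109 bp from the first control STAT5 interval. XRCC6 had no treated interval; the nearest activator STAT5 interval was 60.0 kb from its start. Both downstream control STAT5 intervals are also listed for DESI1, at -176 and -600 bp, and cannot be assigned to either gene.

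PRKDC codes for the kinase that KU holds at the break. It starts at 48872743 on chromosome 8 (minus strand), 752 bp from the start of MCM4, a subunit of the replicative helicase that is read in the other direction. With 7 intervals in the 4 lists it had more than any other of the 9 genes, where LIG4 came next with 6. Its 3 activator STAT5 intervals are all upstream of its start. At chr8:48873244-48873344, between the 2 gene starts, the activator STAT5 values were 2 and 4. At chr8:48874136-48874215, within MCM4, they were 9 and 3, and 9 was the highest value at any end joining gene. At chr8:48875334-48875426 they were 2 and 2, an interval listed for PRKDC and not for MCM4. It too lies downstream of the MCM4 start, but beyond the 1000 bp that the window allows there. The place with the highest value differed between the 2 activator libraries. In the second library, however, the values of 4 and 3 are not distinguishable (Poisson intervals of 1.09 to 10.2 and 0.619 to 8.77).

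Listed for PRKDC, control BCL6 had chr8:48872891-48873154 with values of 0 and 2, chr8:48873392-48873927 with 2 and 4, and chr8:48873995-48874589 with 2 and 8. The middle one spans the MCM4 start. The last 2 were wide (536 and 595 bp) and had a value in both control BCL6 libraries, which in control BCL6 at the other 8 genes 1 LIG4 interval of 10 had, and 9.19% of the whole list. Control STAT5 had 1 interval listed for PRKDC, chr8:48873839-48874135, with values of 2 and 0. It shared 89 bp with the middle and 141 bp with the last control BCL6 interval. Further control intervals lay inside PRKDC, beyond the window, and are listed for MCM4 and not for PRKDC. Control BCL6 had chr8:48871690-48871986 and chr8:48870912-48871239, each with 3 and 0. Control STAT5 had chr8:48871670-48871991 with 2 and 0, which covers all 297 bp of the first. At 752 bp it was the control STAT5 interval nearest to the PRKDC start.

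The highest activator STAT5 interval of PRKDC, with values of 9 and 3, lay with all of its 80 bp on the control BCL6 interval that had 2 and 8. It is also in the authors' list of activator STAT5 intervals on control BCL6 peaks. In that list it carries control values of 2 and 8, the same as the whole 595 bp control BCL6 interval. Those control values are therefore not shown to be counts within the 80 bp. The 80 bp interval is listed for MCM4 too, at 641 bp, and cannot be assigned to either gene. It began at 48874136, directly after the control STAT5 interval that ended at 48874135, with no base between them. Such contact with a control STAT5 interval was found for 1 of the 4 activator STAT5 intervals of these genes (0 of 1 by symbol) and for 18.9% of the whole activator STAT5 list. No activator STAT5 interval in the whole list shared a base with a control STAT5 interval (0 of 14047). By contrast, 25.6% of that list shared a base with a control BCL6 interval. The lack of overlap with control STAT5 thus holds for the list as a whole, and how it came about was not tested. Contact here therefore cannot be read as 2 separate STAT5 places, and whether STAT5 was gained was not tested. The interval between the 2 gene starts (2 and 4) touched nothing and stood 47 bp and 89 bp from its control BCL6 neighbours. Of the 7 PRKDC intervals, 6 are also listed for MCM4.

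**Figure D3:**
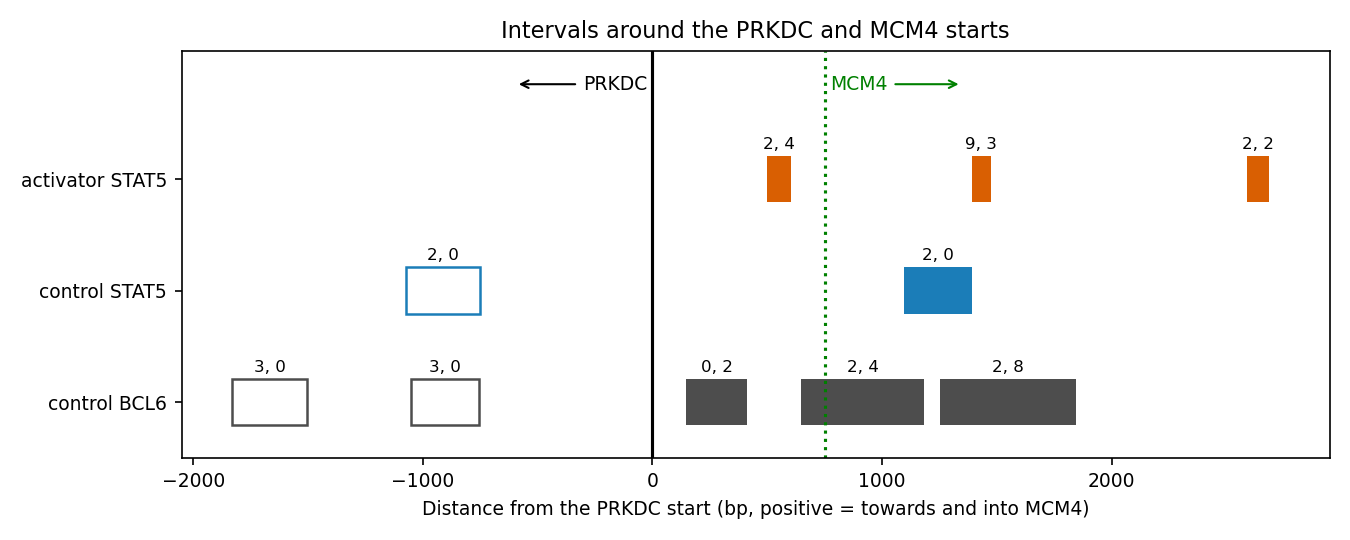
Intervals around the PRKDC start (solid line) and the MCM4 start (dotted line), by distance in bp; the numbers over the bars are the values in libraries 1 and 2, and open bars are listed for MCM4 and not for PRKDC. The activator STAT5 interval with 9 and 3 lies on the control BCL6 interval with 2 and 8 and directly beside the control STAT5 interval with 2 and 0.

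DCLRE1C, the nuclease that opens hairpins and trims ends once DNA-PK has activated it, starts at 14996431 on chromosome 10 (minus strand). Control STAT5 had chr10:14995997-14996280, at 151 to 434 bp inside the gene, with values of 0 and 2, and chr10:14997706-14998008 upstream with 2 and 0. Control BCL6 had chr10:14999404-14999686 with 0 and 2, near the upstream limit of the window and also listed for MEIG1. All 3 intervals were held by a single library at the lowest value, and none overlapped another.

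A copy of the sequence that STAT proteins bind, TTCNNNGAA, was searched in RefSeq promoters of GRCh38.p14 (250 bases before to 50 after a start; the motif is its own reverse complement), because the files' build came without a genome. The table held 14 promoters for 7 of the 9 genes. The motif was found in 1 of the 14, the inner of the DCLRE1C promoters, and in 7.66% of all 35116 promoters. The shorter form TTCNNGAA was found in 1 of the 14, the outer DCLRE1C promoter, and in 7.74% of all promoters. The promoter with the 9-base match is shown with the match in capitals, at bases 4 to 12 counted from the first transcribed base, since it is the only such match among the end joining promoters. This RefSeq start and the start in the files are not shown to be the same base, and the builds differ, so whether a listed interval covers these letters was not determined.
DCLRE1C, chr10:14954047-14954346 (GRCh38.p14, minus strand): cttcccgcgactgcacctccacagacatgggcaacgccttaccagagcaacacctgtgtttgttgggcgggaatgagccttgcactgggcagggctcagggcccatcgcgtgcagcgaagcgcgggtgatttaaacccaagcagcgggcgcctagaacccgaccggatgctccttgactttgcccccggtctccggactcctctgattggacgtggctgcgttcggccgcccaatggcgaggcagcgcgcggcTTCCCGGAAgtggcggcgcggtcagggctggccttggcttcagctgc

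The 2 polymerases fill gaps at imperfectly matched ends. POLL starts at 103348014 on chromosome 10 (minus strand). It had 1 control STAT5 interval, chr10:103348882-103349351, of 470 bp with values of 0 and 5. Control BCL6 had chr10:103347706-103347957, 57 to 308 bp inside the gene, with 2 and 0, and chr10:103350710-103351015 upstream with 0 and 2. POLL thus had its highest value, 5, in 1 control STAT5 library and a value of 0 in the other.

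POLM starts at 44122139 on chromosome 7 (minus strand). It had 2 control STAT5 intervals, chr7:44123752-44124085 with values of 2 and 0 and chr7:44124927-44125211 with 0 and 2, each held by a different library. POLM was the only one of the 9 genes with no control BCL6 interval, and the nearest lay 9.18 kb from its start. The nearest activator STAT5 interval to POLM was 13.9 kb away and to POLL 122 kb away.

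LIG4, the ligase of the pathway, starts at 108870716 on chromosome 13 (minus strand), 12 bp from the start of ABHD13 on the opposite strand. It had 3 intervals in each control list. In control STAT5, chr13:108871135-108871794 was the widest interval of any of the 9 genes (660 bp), with values of 0 and 6, and is also listed for ABHD13. The others, chr13:108872098-108872356 and chr13:108872952-108873270, had 2 and 0 and 0 and 2. In control BCL6, chr13:108870485-108870767 had 0 and 3 and spanned the starts of both LIG4 and ABHD13. It was the only one of the 26 intervals to span the start of its own gene, where 6.96% of all control BCL6 intervals spanned the first start listed for them.

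Further upstream of LIG4, chr13:108872091-108872597 had control BCL6 values of 2 and 3, and chr13:108873699-108873989 had 0 and 2. The first of these covers all 259 bp of the control STAT5 interval with 2 and 0. It is the only overlap between control STAT5 and control BCL6 intervals at the genes found by symbol: 1 of 15 control STAT5 intervals and 1 of 10 control BCL6 intervals. In the whole lists, 30.2% of control STAT5 intervals overlapped a control BCL6 interval and 30.1% the other way. With PRKDC the counts were 2 of 16 and 3 of 13.

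XRCC4, the scaffold that holds LIG4, starts at 82373318 on chromosome 5 (plus strand), 139 bp from the start of TMEM167A on the opposite strand. Control STAT5 had chr5:82372919-82373196 with values of 0 and 2, which spanned the TMEM167A start and ended 122 bp before the XRCC4 start. Control BCL6 had chr5:82371954-82372215 with 2 and 0, inside TMEM167A. Each was seen in 1 library at the lowest value.

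NHEJ1 codes for XLF, which aligns the ends with XRCC4. It starts at 220025587 on chromosome 2 (minus strand), and all of its intervals are upstream. Control STAT5 had chr2:220026023-220026313 with values of 0 and 2, chr2:220026364-220026840 (477 bp) with 0 and 4, and chr2:220027531-220027824 with 3 and 0. Control BCL6 had chr2:220027881-220028316 with 5 and 0, the highest control BCL6 value found by symbol. That interval stood 56 bp from the control STAT5 interval with 3 and 0. These 2 neighbours were found with different antibodies, each in the first of 2 libraries.

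LIG4 and XRCC4 are the 2 genes found by symbol whose control intervals reach the 250 bases before their start, and both share that stretch with a gene on the opposite strand. Their RefSeq promoters are shown on the strand of the gene, with the bases between the 2 opposite starts in capitals (42 bases at LIG4, up to the ABHD13 start, and 152 at XRCC4, up to the TMEM167A start). RefSeq starts can differ from the Ensembl starts in the files, which lie 12 and 139 bp apart. Neither sequence holds TTCNNNGAA.
LIG4, chr13:108218300-108218599 (GRCh38.p14, minus strand): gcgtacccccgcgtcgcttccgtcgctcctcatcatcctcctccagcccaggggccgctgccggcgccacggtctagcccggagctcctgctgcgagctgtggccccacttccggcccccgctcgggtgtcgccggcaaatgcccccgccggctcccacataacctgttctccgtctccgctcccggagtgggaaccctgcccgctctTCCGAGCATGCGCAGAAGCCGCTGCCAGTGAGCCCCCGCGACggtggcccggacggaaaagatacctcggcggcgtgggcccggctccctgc
XRCC4, chr5:83077297-83077596 (GRCh38.p14, plus strand): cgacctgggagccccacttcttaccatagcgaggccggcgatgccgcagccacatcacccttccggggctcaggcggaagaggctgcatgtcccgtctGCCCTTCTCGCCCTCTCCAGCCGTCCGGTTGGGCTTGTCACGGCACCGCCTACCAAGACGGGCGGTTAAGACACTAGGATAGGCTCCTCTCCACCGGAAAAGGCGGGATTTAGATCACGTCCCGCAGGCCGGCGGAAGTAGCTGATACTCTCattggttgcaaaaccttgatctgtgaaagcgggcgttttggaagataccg

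Replicate libraries rarely named the same place. In control STAT5, 1 of 15 intervals found by symbol had a value in both libraries (1 of 16 with PRKDC), against 9.34% of the whole list. In control BCL6 it was 1 of 10, or 3 of 13 with PRKDC, against 9.19%. The second control STAT5 library held 11 of the 15 intervals and the first 5 (11 and 6 of 16 with PRKDC), where over the whole list the second held 60.0% and the first 49.3%. The second control BCL6 library held 7 of 10 and the first 4 (10 and 6 of 13 with PRKDC), against 58.1% and 51.1%. A value of 3 or more in 1 library was reached by 7 of the 15 control STAT5 intervals (7 of 16 with PRKDC, against 29.0% of the whole list) and by 4 of the 10 control BCL6 intervals (6 of 13, against 28.9%). In activator STAT5 it was reached by the XRCC5 interval and, with PRKDC, by 3 of 4, against 64.7%. All control STAT5 intervals with a value of 4 or more (4 intervals, at XRCC6, LIG4, NHEJ1 and POLL) had it in the second library and 0 in the first. These 4 were at least 470 bp wide, and the other control STAT5 intervals of these genes, with or without PRKDC, were at most 390 bp wide. In control BCL6 width did not separate the values in this way: the narrowest interval with a value of 4 or more was 436 bp wide and the widest below 4 was 507 bp. Values of 4 or more by library, and widths by value, were not counted over the whole lists. Neither pattern is therefore a result about the genes.

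**Figure D4:**
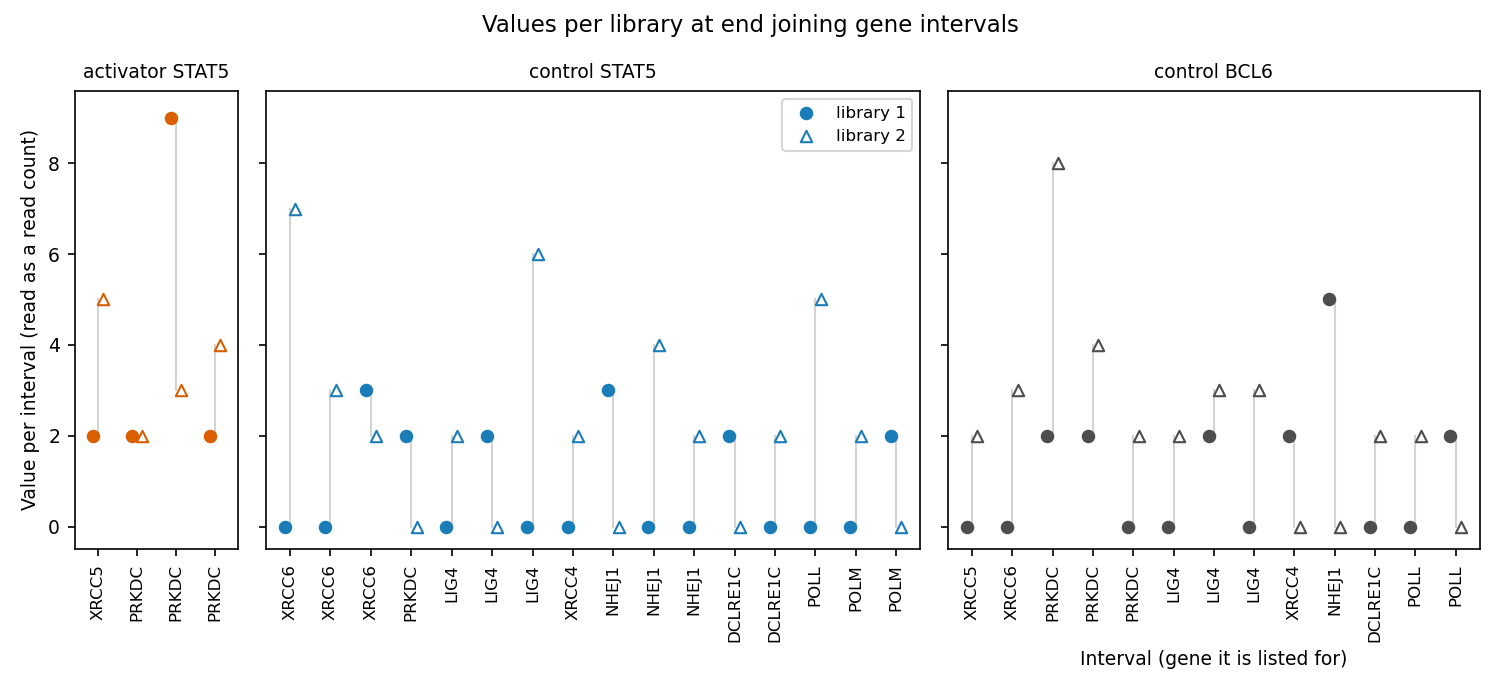
Value of each interval in library 1 (filled circles) and library 2 (open triangles), by gene, for the 3 lists that hold end joining genes; grey lines join the libraries of an interval. Control intervals mostly have 0 in 1 library, while the activator STAT5 values are 2 or more in both libraries because that list requires it.

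The 4 activator STAT5 intervals at these genes were 51 bp (XRCC5) and 101, 80 and 93 bp (PRKDC) wide. All were under the list's median of 142 bp, itself under the medians of control STAT5 (304 bp) and control BCL6 (305 bp). With so few intervals, most of them at PRKDC, this width is not a result about the genes. The treated and control lists have different entry rules, so the difference between their medians is not a result about STAT5 binding. The nearest activator STAT5 interval to the starts of the other 7 genes lay between 2.42 kb (LIG4) and 122 kb (POLL) away. The one near LIG4, chr13:108868087-108868294 with values of 2 and 2, lies inside LIG4 beyond the window and is listed for ABHD13 alone. A single base separates it from a control STAT5 interval, chr13:108868296-108868610, with values of 0 and 2.

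No inhibitor BCL6 interval came near a start of the 9 genes. The nearest lay 18.4 kb from the start of NHEJ1 and 110 kb from that of DCLRE1C, and the median over the 9 genes was 445 kb. The inhibitor BCL6 list holds 1652 intervals, and at a background of 3.30% the lack of an interval at 9 genes is not a result about them.

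Other genes of end joining were counted from a list of 26 genes: 7 accessory factors, 8 that steer breaks to or from end joining, 9 of alternative end joining and the 2 RAG genes. The activator STAT5 list held 7 of the 26, the inhibitor BCL6 list 2, the control STAT5 list 23 and the control BCL6 list 21. Among all protein-coding symbols the shares were 26.1%, 3.30%, 74.9% and 73.9% in that order of lists, and no test was made of the difference. APLF, a scaffold that binds KU, was the only one of the 26 in both treated lists. It had activator STAT5 values of 5 and 5 at chr2:68694824-68695419 (596 bp), which stood 367 bp from the nearest control STAT5 interval and 614 bp from the nearest control BCL6 interval. It also had inhibitor BCL6 values of 3, 4 and 3 at chr2:68693746-68693846, which shared 15 bp with a control STAT5 interval.

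APTX, which clears stalled ligation products, had activator STAT5 values of 2 and 5 at chr9:33024170-33024247, in contact with a control STAT5 interval. SHLD2, a subunit of the shieldin complex that protects ends from resection (FAM35A in the files), had 3 and 2 at chr10:88853110-88853271 and shared 77 bp with a control BCL6 interval, with control values of 0 and 2 in the authors' shared list. Of alternative end joining, RAD50 of the MRE11 complex had 2 and 7 at chr5:131892435-131892533. LIG3 and its scaffold XRCC1 had 4 and 2 and 2 and 6. Both lay on control BCL6 intervals, with control values of 2 and 0 at LIG3 and 0 and 2 at XRCC1 in that list, and the XRCC1 interval also touched a control STAT5 interval. PARP1, a break sensor, had 2 and 2 over 2 bp.

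POLQ, the polymerase of alternative end joining, had inhibitor BCL6 values of 2, 4 and 3 at chr3:121267081-121267340, on a control STAT5 interval with 3 and 0. POLQ and APLF were both in the list of inhibitor BCL6 intervals on control STAT5 peaks (2 of 26, against 0.863% of protein-coding symbols). SHLD2, LIG3 and XRCC1 were in that of activator STAT5 intervals on control BCL6 peaks (3 of 26, against 7.43%). With only 2 and 3 genes and no test made, neither count is a result about these genes.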

How the data were processed

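GRCh37 is the build, and CASAVA 1.8.2 and Bowtie 0.12.7 the tools, that the submitters' processing notes name, with no role for either; the sources used here do not give the peak caller. Deposited by the authors were 6 lists of intervals near Ensembl gene starts with 1 whole-number value per library, read here as a count of reads, and the interval's width and signed distance in bp; that distance runs from the gene start to the lowest coordinate of the interval. Columns were matched to samples by condition and library number. The authors' names for the control lists pair STAT5 with the inhibitor and BCL6 with the activator, although all values in them come from control libraries. Those lists are named here by their libraries. Whether they hold all control intervals or a selection against a treatment is not known. The 2 shared lists repeat treated intervals unchanged (3593 of 3593 and 391 of 391). Each distinct interval was counted once. Overlap meant at least 1 shared bp and contact no base between. Backgrounds are shares of the 20056 protein-coding symbols of a RefSeq table (GRCh38.p14, names only; older symbols matched) or of all intervals in a list. All 9 genes are named by rule. The genes and lists were chosen with earlier results of these data known, and no test was made. Overlap code was checked on simulated intervals (Python 3.11.15, pandas 2.3.3, scipy 1.17.1). Alternatives used stricter values, a narrower window, other overlap rules and leaving out each library.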

Additional observations from a re-analysis of the deposited data

How the results depend on the processing

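No paired analysis was possible because no result comes from a test and the labels number the libraries from 1 to 14 without repeats. Of 75 alternative values, 43 were equal to the value reported or, for counts, within 1.5 times of it, and 32 moved. Adding PRKDC by gene ID, chosen after seeing the data, gave 2 genes and 4 intervals in activator STAT5 and 1 gene with 1 interval in activator STAT5 on control BCL6. It also gave 2 control STAT5 intervals on control BCL6 and 3 the other way, 1 activator STAT5 interval on control BCL6 and 1 directly beside control STAT5. With a value of at least 3 in 1 library, control STAT5 kept 4 genes and 7 intervals and control BCL6 3 genes and 4 intervals. With a value in every library, each control list kept 1 gene and 1 interval (XRCC6 in control STAT5, LIG4 in control BCL6). Within 1000 bp of the start there were 8 control STAT5 intervals, and 4 genes and 4 intervals in control BCL6. Within 100 bp instead of overlapping, 2 intervals counted in each direction between the control lists. Without 1 library, control STAT5 had 5 to 11 intervals, with the low end without the second library, and control BCL6 4 to 5 genes and 4 to 7 intervals, both low ends without its second library. The backgrounds over all symbols were 12.8% (activator STAT5), 1.60% (inhibitor BCL6), 37.8% (control STAT5) and 37.4% (control BCL6). With a value of at least 3 they were 18.2%, 2.54%, 35.8% and 34.1% of protein-coding symbols, in that order of lists. Most nonzero control values are 2, the lowest nonzero value, which limits what a single interval shows.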
